A study of Mus musculus with 18 samples.

Results

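The step from naive B cell to long-lived plasma cell was examined in mice whose B lineage had lost the DNA methyltransferases Dnmt3a and Dnmt3b. The samples were chosen by their labels alone: 3 bone marrow plasma cell (BMPC) libraries and 3 naive B cell (nB) libraries from Dnmt3-deficient mice, 6 of the 18 RNA-seq libraries of the study. Dnmt3-deficient mice were Dnmt3afl/fl Dnmt3bfl/fl with a Cre allele active in the B lineage, and Dnmt3-sufficient mice were Dnmt3afl/fl Dnmt3bfl/fl littermates without Cre, all of a mixed B6;129S4 background. Dnmt3-deficient nB and BMPC both carried Cre, and recombination began early in the B lineage. nB (B220+ GL7- Fas-) were sorted from lymph nodes of unimmunized mice, and BMPC (CD138+) from bone marrow 30 days after immunization with PE-CFA, the protein phycoerythrin in complete Freund's adjuvant. Each nB and BMPC library came from 5000 cells of 1 mouse that was 8 to 12 weeks old when experiments began. Sex was not balanced. Dnmt3-deficient nB replicates 1 and 2 were female and replicate 3 male, and BMPC replicate 1 was female and replicates 2 and 3 male. Dnmt3-sufficient nB replicates 1 and 2 and BMPC replicate 2 were female, and the others male. Tissue, immunization and cell type changed together and cannot be told apart, and in bulk RNA a smaller share of expressing cells cannot be told apart from less RNA per cell.

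Plasma cells are the antibody-secreting end stage of the B lineage. The transcription factors Prdm1 (Blimp-1), Irf4 and Xbp1 are known to drive their formation, the first by repressing the B cell program and the last by enlarging the endoplasmic reticulum (ER) and its folding machinery. Dnmt3a and Dnmt3b place new methyl groups on DNA, and loss of B cell genes on the way to a plasma cell is a setting in which such methylation is studied.

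BMPC libraries were shallower than nB libraries. The 3 Dnmt3-deficient BMPC libraries held 1355231 to 2265945 reads over the listed genes and 5881 to 7437 genes above 1 FPKM (reads scaled to exon length and library size), against 7016395 to 7990702 reads and 9412 to 9682 genes in the 3 nB libraries. Spearman correlation across genes ran from 0.914 to 0.929 between nB libraries and from 0.625 to 0.674 between BMPC libraries, with 0.519 to 0.597 between the cell types, as a description. nB replicate 2 held Jchain at 113 FPKM where replicates 1 and 3 held 0.119 and 0. For other genes higher in BMPC it stood apart in either direction. It was highest for Ccnb1 (7.26 against 0 and 0.0565 FPKM) and Pycr1 (3.39 against 0.406 and 0.459 FPKM). It was lowest for Fkbp11 (1.43 against 17.7 and 6.55 FPKM) and Tmem176a (0.0884 against 3.65 and 4.78 FPKM). The floxed segments cover only the catalytic part of each enzyme, so total Dnmt3a and Dnmt3b reads do not check the deletion.

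In Dnmt3-deficient cells, 593 of 10176 genes tested (5.83%) were higher in BMPC than in nB and 2533 (24.9%) were lower, with limma's moderated test on log2(FPKM + 1), a Benjamini-Hochberg adjusted p of at most 0.05 and a log2 difference of at least 1. These 2 shares are the background for every count below, in which "rose" and "fell" are used only of genes past both thresholds. Plasma cell markers and ER genes were among those that rose, and regulators, receptors and MHC class II genes of naive B cells among those that fell. Without a test, all 3 BMPC libraries lay above all 3 nB libraries for 1088 genes (10.7%) and below them for 3954 (38.9%). These held all 593 genes that rose and all 2533 that fell, so such separation comes with the call and adds no support. The genes that rose took 6.0% of nB reads and 41.4% of BMPC reads, and the genes that fell went from 38.8% to 6.38%. The median log2 difference over all genes tested was -1.05, so a list is read against that value and not against 0. When the values were centred so that the median gene had no difference, an option chosen after seeing the data, 1544 genes rose and 867 fell, which made 64.0% of the calls rises in place of 19.0%.

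Some of these calls were fixed by the filter. A gene entered the test with more than 1 FPKM in at least 2 of the 6 libraries, and 1167 of the 2533 genes that fell had no BMPC library above 1 FPKM, whereas 89 of the 593 that rose had no nB library above it. In 1005 of the genes that fell, no BMPC library held more than 3 reads. Dropout touched expressed genes too: of 5356 genes with a mean above 10 FPKM in nB, 1518 had at least 1 BMPC library at 0 and 160 had all 3 at 0. Exon length moved with the direction of change. Genes that rose had a median exon length of 1630 bases and genes that fell of 3608, and of the 3394 genes with the shortest exons 11.2% rose and 16.2% fell, while of the 3390 with the longest 2.15% rose and 29.5% fell. The part of exon length in the list results was not tested.

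The 4 plasma cell markers were all higher in BMPC of Dnmt3-deficient mice. Their 3 BMPC libraries lay above every nB library, as for every gene that rose. Xbp1 (chr11:5420662-5425896 of mm9, plus strand), the transcription factor of the secretory program, stood at 30.5, 28.2 and 21.3 FPKM in nB against 622, 835 and 743 FPKM in BMPC, a log2 difference of 4.74 ± 0.24 (SE, n = 3 and 3, limma adjusted p = 0.000176). Sdc1 (chr12:8778129-8800521, plus strand), which encodes the CD138 antigen used in the sort and so checks the sort, rose from 0.819, 0.466 and 0.171 FPKM to 34.5, 108 and 92.6 FPKM. Prdm1 (chr10:44156983-44248307, minus strand), the repressor Blimp-1, rose from 0.184, 0.210 and 0 FPKM to 23.8, 45.2 and 7.15 FPKM, a log2 difference of 4.22 ± 0.73 (limma adjusted p = 0.0065). The BMPC libraries differed among themselves for Prdm1 by more than for Xbp1, with replicate 3 lowest. Jchain, which joins antibody units into polymers, reached 39020.0, 46609 and 29771 FPKM in BMPC and made up 8.20%, 9.80% and 6.26% of their reads. Its log2 difference was 12.88 ± 1.71, and 15.13 without nB replicate 2. With the voom weighting on reads in place of log2(FPKM + 1), Jchain alone of the 4 missed the threshold (adjusted p = 0.674).

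**Figure D1:**
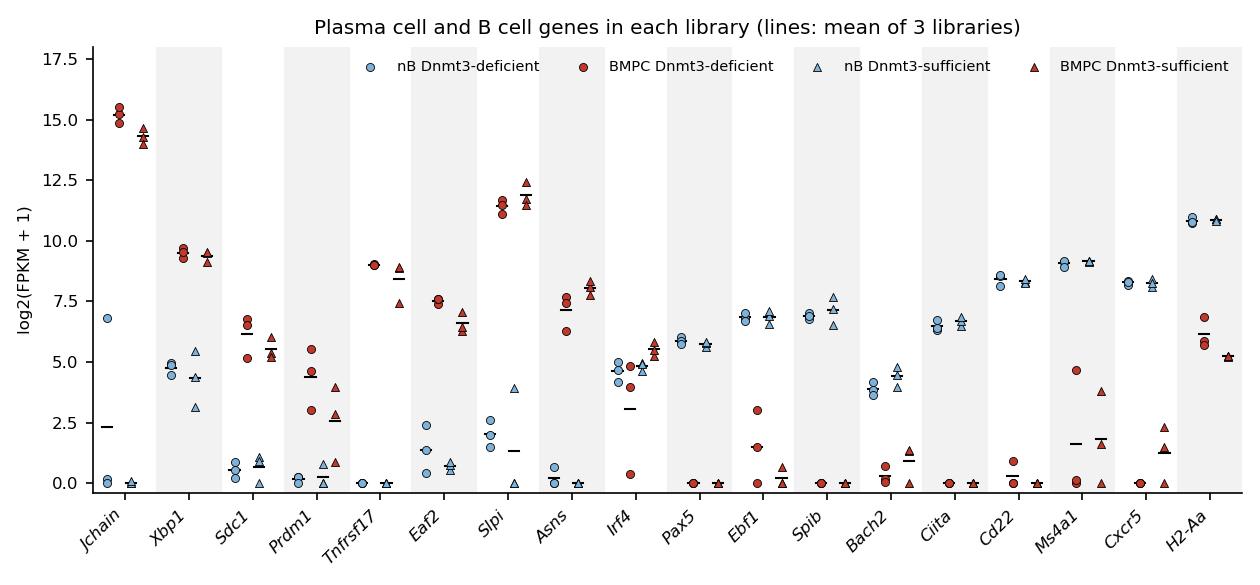
Level of 18 genes on the log2(FPKM + 1) scale in each of the 3 nB and 3 BMPC libraries of Dnmt3-deficient (circles) and Dnmt3-sufficient mice (triangles), with a black bar at each group mean. Xbp1 of Dnmt3-deficient BMPC (622 to 835 FPKM) sits above its nB (21.3 to 30.5 FPKM), Pax5 of the same BMPC sits at 0, and Irf4 overlaps between the cell types.

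Among 12 regulators of plasma cell formation, 5 rose and none fell, and their median log2 difference was 0.26. Besides Xbp1 and Prdm1 these were Eaf2 and Ell2, both transcription elongation factors, and Creb3l2, a membrane-bound factor of the secretory pathway. Eaf2 went from 0.330, 4.26 and 1.55 FPKM to 168, 191 and 194 FPKM, a log2 difference of 6.14 ± 0.57 with an adjusted p of 0.00129. Ell2, known to favour the secreted form of the antibody heavy chain, rose from 4.76, 4.41 and 6.46 FPKM to 40.4, 28.1 and 45.9 FPKM. The other 7 did not pass. Irf4 stood at 17.2, 31.0 and 24.7 FPKM in nB against 14.5, 0.315 and 27.9 FPKM in BMPC, where replicate 2 held 2 reads and the groups overlapped (adjusted p = 0.312). Pou2af1, a B cell coactivator, held 115, 127 and 172 FPKM in nB against 96.7, 95.8 and 114 FPKM in BMPC, and Atf4, the effector of the amino acid stress response, differed by 0.32 on the log2 scale (adjusted p = 0.507).

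Of 17 surface and survival genes, 7 rose and 3 fell. The count of falls was 1 without any 1 of the nB libraries and 0 with centring on the median gene. Tnfrsf17 encodes BCMA, the receptor through which plasma cells receive survival signals in marrow. It had no read in any nB library and 523, 516 and 518 FPKM in BMPC, at least 1058-fold higher against a floor of 3 reads per nB library. Cd28, a costimulatory receptor, rose from 2.16, 0.737 and 2.19 FPKM to 58.2, 72.2 and 56.8 FPKM, and Slamf7, a signalling receptor of lymphocytes, from 21.6, 16.4 and 22.9 FPKM to 176, 154 and 207 FPKM. Cd93, Itgb1 and Cd44, 3 genes of adhesion, also rose, by 3.99, 2.07 and 2.00 on the log2 scale. The 3 that fell were Cd38, the integrin chain gene Itgb7, and Bcl2l1, which encodes the survival protein Bcl-xL. Cd38, an ectoenzyme that human plasma cells carry at high levels, stood at 163, 173 and 138 FPKM in nB and 14.1, 0 and 30.6 FPKM in BMPC (log2 difference -4.34 ± 1.19, adjusted p = 0.0316), and the call was lost in 8 of 20 alternative settings. Among survival genes with high levels that did not pass, Mcl1 held 96.6, 102 and 74.0 FPKM in nB and 72.4, 130.1 and 51.5 FPKM in BMPC, and Tnfrsf13b, the receptor TACI, 104, 132 and 104 FPKM and 76.9, 174 and 23.9 FPKM.

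In the list of 23 genes for translocation into the ER, 16 rose, 6 did not pass and 1 fell, with a median log2 difference of 2.09 against -1.05 over all genes, and the count of rises stayed between 14 and 16 in all 20 alternative settings. The signal sequence receptor subunit gene Ssr4 stood at 162, 184 and 153 FPKM in nB and 2262, 2259 and 2630.3 FPKM in BMPC, a log2 difference of 3.83 ± 0.13 with an adjusted p of 5.18e-05. The signal peptidase subunit genes Spcs1 and Sec11c followed, at 3.42 and 3.10 on the log2 scale. Neither gene overlapped between the cell types in any library, as for every gene that rose. The channel genes Sec61a1, Sec61b and Sec61g and the genes Ssr1, Ssr2 and Ssr3 rose by 1.90 to 2.45. Sec61a2, another channel alpha subunit gene, was the member that fell, from 16.0, 10.3 and 10.9 FPKM to 0.192, 0 and 0 FPKM, which in BMPC was 1 read in all. The signal recognition particle receptor gene Srpr held 70.5, 58.9 and 74.1 FPKM in nB and 40.4, 138 and 106 FPKM in BMPC and did not pass.

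Of 29 chaperone and folding enzyme genes tested, 14 rose and none fell by the threshold (median log2 difference 1.01), with 1 lower at an unadjusted limma p under 0.05 and none by voom. The largest were Prdx4, a peroxiredoxin that takes part in disulfide formation in the ER, and Fkbp11, a prolyl isomerase. Prdx4 stood at 14.8, 28.0 and 3.95 FPKM in nB and 319, 465 and 344 FPKM in BMPC, and Fkbp11 at 17.7, 1.43 and 6.55 FPKM and 265, 136 and 206 FPKM. Mzb1, a B cell partner of the chaperone Hsp90b1 in antibody assembly, rose from 339, 338 and 275 FPKM to 2758, 3390.5 and 2792 FPKM, a log2 difference of 3.23 ± 0.14 with an adjusted p of 6.79e-05. The most abundant chaperone gene, Hspa5 (BiP), held 486, 544 and 560.1 FPKM in nB against 494, 1044 and 659.8 FPKM in BMPC, a log2 difference of 0.40 ± 0.26 (adjusted p = 0.274). Pdia4, a disulfide isomerase, had an adjusted p of 0.0383 and a log2 difference of 0.92, just under the minimum of 1.

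In the list of unfolded protein response and ER-associated degradation, 9 of 23 genes rose and none fell by the threshold, and the median was 0.02. In limma 2 were lower at an unadjusted p under 0.05, and with voom none fell. Derl3, a component of the channel that returns misfolded proteins to the cytosol, stood at 6.0, 10.5 and 0 FPKM in nB and 218, 293 and 441 FPKM in BMPC, a log2 difference of 6.14 ± 0.90 with an adjusted p of 0.00389. The mannosidase-like genes Edem1, Edem2 and Edem3 rose by 2.75, 2.85 and 1.73. Vimp, a partner of the degradation complex, rose from 132, 123 and 105 FPKM to 621, 647 and 609 FPKM, with little spread within either group. Of the stress sensors, Eif2ak3 and Atf6 did not pass and Ern1 was too low to be tested. Vcp, the ATPase that pulls proteins from the ER, stood at 98.8, 86.4 and 102 FPKM in nB against 68.7, 51.0 and 85.5 FPKM in BMPC (adjusted p = 0.215).

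**Figure D2:**
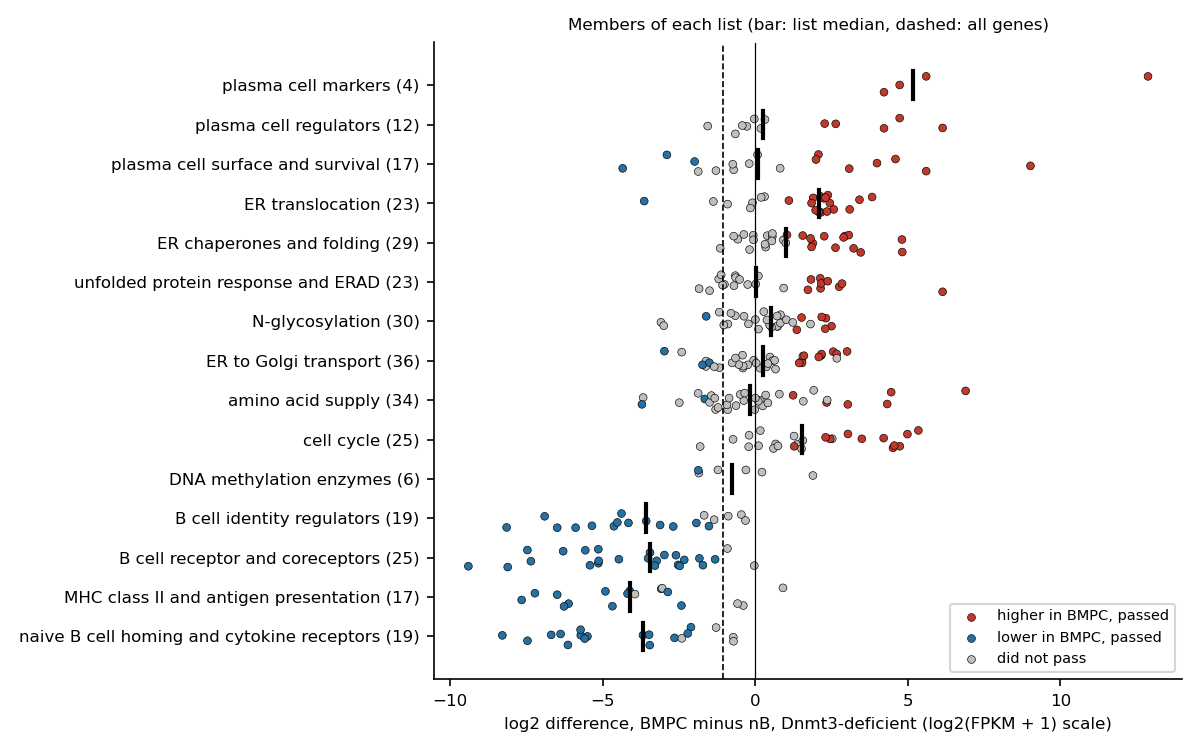
Each point is 1 tested member of a gene list, placed by its log2 difference (BMPC minus nB of Dnmt3-deficient mice, on the log2(FPKM + 1) scale), red where it rose, blue where it fell and grey where it did not pass; black bars are list medians and the dashed line is the median of all genes tested at -1.05. The ER translocation members gather around 2.09, and the 4 naive B cell lists at the bottom have medians between -4.11 and -3.45.

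Of 30 genes for N-glycosylation, 6 rose and 1 fell (median 0.51; 0 to 4 fell when a library was left out, 0 without any 1 of the nB libraries and 4 without BMPC replicate 1), with Ostc and Krtcap2, both oligosaccharyltransferase subunit genes, at 2.5 and 2.30 on the log2 scale. The catalytic subunit gene Stt3b rose by 1.52, while its relative Stt3a held 149, 146 and 165 FPKM in nB and 56.3, 134 and 221 FPKM in BMPC and did not pass. Of 36 genes for ER to Golgi transport, 9 rose and 3 fell (median 0.27). Kdelr2, the receptor that returns ER proteins from the Golgi, rose from 43.1, 47.4 and 57.8 FPKM to 324, 425 and 476 FPKM (log2 difference 3.01 ± 0.25, adjusted p = 0.000899). The SNARE gene Bet1 and the cargo receptor gene Lman1 rose by 2.56 and 2.67. The 3 that fell were Copg2 and Sec24c, coat components, and Gosr2, a Golgi SNARE, at -2.97, -1.72 and -1.50. Copg2 lost its call in 10 of 20 alternative settings, and no member fell without nB replicate 1 or without nB replicate 3.

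Of 34 genes for amino acid supply, 6 rose and 2 fell (median -0.18). Asns, asparagine synthetase, stood at 0, 0 and 0.611 FPKM in nB against 204, 76.2 and 172 FPKM in BMPC, a log2 difference of 6.90 ± 0.57 with an adjusted p of 0.000896. The proline synthesis gene Pycr1 rose from 0.406, 3.39 and 0.459 FPKM to 44.8, 31.7 and 62.8 FPKM. Chac1, a glutathione-degrading enzyme, had no read in nB and 16.0, 48.0 and 8.72 FPKM in BMPC, at least 95.4-fold higher against 3 reads per library. The serine synthesis genes Psat1 and Phgdh rose by 3.04 and 1.24, and Slc3a2, the shared chain of amino acid transporters, by 2.34. The 2 that fell were tRNA synthetase genes: Qars stood at 83.3, 41.8 and 69.7 FPKM in nB and 23.9, 1.76 and 0.657 FPKM in BMPC, and Vars was lower by -1.65. Qars lost its call in 11 of 20 alternative settings, and the count of falls went from 0 without nB replicate 2 or nB replicate 3 to 6 without BMPC replicate 1. The synthetase genes Kars and Nars, the most abundant members that did not pass, differed by 0.01 and 0.35. Over the 5 lists from translocation to transport, 54 of 141 genes tested (38.3%) rose and 5 fell, and their share of all reads went from 2.13% in nB to 5.6% in BMPC. With centring on the median gene, 20 chaperone, 12 N-glycosylation, 15 transport and 11 amino acid supply genes rose, and of these lists no member fell.

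The promoters of these genes were searched for the motifs of the factors named above, and 5 windows are printed because they belong to members that changed and hold a match. Each window runs from 250 bases before to 50 bases after the transcription start (RefSeq, build GRCm38.p6). The motifs were the ER stress element ERSE (CCAAT, 9 bases of any kind, CCACG), the unfolded protein response element core TGACGTGG, the amino acid response element core TGATGNAA, and the Y box core CTGATTGG of MHC class II promoters, on both strands. The Y box core holds the first part of ERSE and TGACGTGG its second part, each read on the other strand. Capitals mark the first match of the motif named, and every sequence runs 5′ to 3′ on the strand of its gene. Derl3 (chr10:75893148-75893447, plus strand) and Creld2 (chr15:88819396-88819695, plus strand) each hold an ERSE on the opposite strand. Ube2j1 (chr4:33031130-33031429, plus strand) holds TGACGTGG on the opposite strand, Asns (chr6:7693160-7693459, minus strand) holds TGATGNAA, and H2-Oa (chr17:34092129-34092428, plus strand), an MHC class II gene that fell, holds the Y box core.
Derl3: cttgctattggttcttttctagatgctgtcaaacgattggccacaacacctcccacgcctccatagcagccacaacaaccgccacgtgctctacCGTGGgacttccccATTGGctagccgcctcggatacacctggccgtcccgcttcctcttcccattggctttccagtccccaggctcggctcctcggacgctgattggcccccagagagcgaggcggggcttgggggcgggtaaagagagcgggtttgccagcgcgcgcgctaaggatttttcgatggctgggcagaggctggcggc
Creld2: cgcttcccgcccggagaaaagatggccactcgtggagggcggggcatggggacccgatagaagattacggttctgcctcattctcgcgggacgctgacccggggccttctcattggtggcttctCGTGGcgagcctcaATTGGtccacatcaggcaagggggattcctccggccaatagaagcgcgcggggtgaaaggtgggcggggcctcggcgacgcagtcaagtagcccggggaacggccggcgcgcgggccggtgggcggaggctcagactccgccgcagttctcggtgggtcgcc
Ube2j1: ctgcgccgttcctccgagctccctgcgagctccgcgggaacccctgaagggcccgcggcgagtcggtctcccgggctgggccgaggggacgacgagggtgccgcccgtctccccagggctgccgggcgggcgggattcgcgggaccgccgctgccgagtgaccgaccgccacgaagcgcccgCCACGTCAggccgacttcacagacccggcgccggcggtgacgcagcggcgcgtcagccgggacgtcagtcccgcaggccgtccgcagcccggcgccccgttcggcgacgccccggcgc
Asns: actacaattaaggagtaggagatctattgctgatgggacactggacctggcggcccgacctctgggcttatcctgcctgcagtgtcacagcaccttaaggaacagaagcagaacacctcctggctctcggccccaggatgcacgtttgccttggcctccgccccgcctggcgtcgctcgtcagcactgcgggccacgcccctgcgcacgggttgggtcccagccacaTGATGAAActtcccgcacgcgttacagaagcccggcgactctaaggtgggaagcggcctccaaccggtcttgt
H2-Oa: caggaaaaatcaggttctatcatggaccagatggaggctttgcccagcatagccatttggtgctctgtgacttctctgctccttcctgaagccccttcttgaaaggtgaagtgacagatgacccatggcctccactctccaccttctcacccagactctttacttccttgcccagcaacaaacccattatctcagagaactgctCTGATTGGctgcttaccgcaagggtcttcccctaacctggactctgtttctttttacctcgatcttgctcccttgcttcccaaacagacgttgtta
An ERSE was found in 37 of 27023 promoters (0.137%) and in 8 of 25 promoters of ER chaperone and folding genes (32%). Of these 8 genes, Canx, Creld2, Dnajc3 and Hsp90b1 rose in BMPC and the others did not, where 14 of 29 rose in the whole list. TGACGTGG was found in 0.714% of all promoters and in 6 of 31 promoters of ER to Golgi transport genes (19.4%). TGATGNAA was found in 4.51% and the Y box core in 4.70% of all promoters. The Y box core was also in 8 of 20 promoters of unfolded protein response and degradation genes (40%). It was in 8 of 25 promoters of chaperone and folding genes (32%), so it was not particular to class II genes. The Derl3 window holds it in lower case. An E2F motif, TTTCCCGC, was searched too, and was in 1.24% of all promoters and 2 of 23 promoters of cell cycle genes (8.70%). Among promoters of the genes tested, ERSE was in 0.209%, TGACGTGG in 1.12% and TGATGNAA in 2.83%. The Y box core was in 7.06% of them and the E2F motif in 2.465%. Only 27 of 37 amino acid supply genes and 12 of 19 MHC class II genes had a window, so shares for those 2 lists were void. A match is a description of the letters and not of binding.

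On the other side, the naive B cell program was lower in BMPC of Dnmt3-deficient mice. Over 4 lists, 63 of 79 genes tested (79.7%) fell and none rose in limma or with voom (1 was higher at an unadjusted p under 0.05), the median log2 difference was -3.57, and their share of reads went from 7.74% to 2.04%. The counts of falls stayed within 1.5 times of those given in every alternative setting. Among 19 regulators of B cell identity, 14 fell. Pax5, the factor that holds the B cell fate, stood at 64.9, 57.2 and 52.6 FPKM in nB and had no read in any BMPC library, at least 39.3-fold lower against a floor of 3 reads per library. Spib, an Ets factor, stood at 128, 108 and 119 FPKM and Ciita, the master activator of MHC class II, at 106, 77.9 and 84.6 FPKM in nB, and neither had a read in BMPC. Id3, an inhibitor of E proteins, went from 288, 256 and 303 FPKM to no read, at least 150.2-fold lower. Ebf1 stood at 112, 129.8 and 104 FPKM and then 1.82, 7.10 and 0 FPKM, and Bach2, a repressor of Prdm1, at 13.3, 11.5 and 17.0 FPKM and then 0.120, 0.653 and 0.0434 FPKM. Every one of these 6 was lower in all 3 BMPC libraries than in any nB library, as was every gene that fell. The Ikaros family genes Ikzf1 and Ikzf3 did not pass, and Ikzf3 stood at 24.7, 24.8 and 27.2 FPKM in nB and 21.2, 11.2 and 26.0 FPKM in BMPC.

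Of 25 genes of the B cell receptor and its coreceptors, 23 fell (median -3.45). Fcer2a, the low-affinity IgE receptor CD23, had the largest fall of all genes tested: 622, 681 and 719.8 FPKM in nB and no read in BMPC, at least 1164-fold lower (log2 difference -9.40 ± 0.35, adjusted p = 5.18e-05). Cr2, the complement receptor, also reached 0 in all 3. Cd22, an inhibitory coreceptor, stood at 372, 277 and 385 FPKM and then 0, 0 and 0.906 FPKM, and Ms4a1 (CD20) at 554, 578 and 481 FPKM and then 24.6, 0 and 0.10 FPKM. The receptor's signalling chains fell less: Cd79a from 2291, 2635 and 2046 FPKM to 962, 841 and 997 FPKM, and Cd79b from 2908, 3129 and 2683 FPKM to 823, 942 and 704.3 FPKM, with log2 differences of -1.31 and -1.83. The adaptor gene Blnk (-0.91, adjusted p = 0.0648) and the inhibitory Fc receptor gene Fcgr2b (-0.03) did not pass.

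Of 17 genes of MHC class II and antigen presentation, 12 fell and none rose by the threshold (median -4.11). H2-DMb2, a peptide editor, stood at 740.1, 749 and 824 FPKM in nB and 1.55, 6.85 and 5.96 FPKM in BMPC, and the class II chain gene H2-Aa at 1695, 2004 and 1743 FPKM and then 57.8, 51.1 and 115 FPKM. The invariant chain gene Cd74 stayed high, at 9955, 11493 and 10006 FPKM in nB and 7084, 7532 and 9612 FPKM in BMPC, a log2 difference of -0.39 (adjusted p = 0.0447) that was under the minimum of 1. Ctss, the protease that trims the invariant chain, was above nB in all 3 BMPC libraries, at 1852, 1619.8 and 1684 FPKM against 886, 1024 and 834 FPKM, and its log2 difference of 0.91 (adjusted p = 0.00247) was also under that minimum. Of 19 genes of homing and cytokine receptors, 15 fell (median -3.68). The chemokine receptor genes Cxcr5 and Ccr7, which guide B cells into follicles and lymph nodes, went from 328, 292 and 314 FPKM and from 172, 164 and 189 FPKM to no read in BMPC, at least 457-fold and 193-fold lower. S1pr1, which guides exit from lymph nodes, and Il21r also reached 0 in all 3. Ifngr1 and Itgal did not pass, at -0.71 each.

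Of 25 cell cycle genes tested, 11 rose in BMPC, none fell and 14 did not pass, with a median log2 difference of 1.52. The mitotic cyclin gene Ccnb1 stood at 0, 7.26 and 0.0565 FPKM in nB and 77.2, 89.8 and 82.3 FPKM in BMPC, and its kinase partner gene Cdk1 at 0, 0 and 0.549 FPKM and 51.0, 49.3 and 18.1 FPKM. Rrm2, a subunit of ribonucleotide reductase, rose from 5.63, 4.71 and 7.98 FPKM to 162, 188 and 144 FPKM. The count of rises was 7 without any 1 of the nB libraries and 15 with centring on the median gene. Among 6 DNA methylation enzymes tested, Tet3, an enzyme that oxidizes methylcytosine, fell from 5.97, 4.02 and 5.77 FPKM to 0.331, 0.865 and 0.995 FPKM, a call lost in 5 of 20 alternative settings, among them without nB replicate 1 and without nB replicate 3. Dnmt1, which copies methylation at replication, stood at 17.2, 9.70 and 18.4 FPKM in nB and 1.49, 3.58 and 6.17 FPKM in BMPC (adjusted p = 0.0581). Dnmt3a stood at 4.33, 2.24 and 3.86 FPKM and then 0.0544, 3.08 and 0.549 FPKM, and Dnmt3b at 0.521, 8.15 and 3.0 FPKM and then 0, 1.88 and 9.29 FPKM, without passing.

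The 10 largest rises included 6 genes outside the program lists and the cell type markers. Slpi, a secreted protease inhibitor, stood at 2.93, 1.81 and 5.10 FPKM in nB and 2235, 3314 and 2826 FPKM in BMPC. Prg2, the major basic protein gene of eosinophil granules, had no read in nB and 1733, 1391 and 2016 FPKM in BMPC, at least 3603-fold higher. Pon3, a lactonase gene, rose to 523, 792 and 669 FPKM, Mt1, a metallothionein gene, to 270.1, 151 and 229 FPKM, Tmem176a, a membrane protein gene, to 269.9, 456 and 529 FPKM, and Gstm5, a glutathione transferase gene, to 132, 57.5 and 146 FPKM. No nB library exceeded 5.87 FPKM for any of these 6. The largest falls outside the lists were Fcrl1, an Fc receptor-like gene, from 525, 557 and 496 FPKM to 0, 0.361 and 0 FPKM, Ms4a4c, of the family of CD20, from 240.3, 356 and 246 FPKM to 0.355, 0 and 0 FPKM, and Srpk3, a kinase gene, from 372, 328 and 368 FPKM to 8.11, 0 and 0 FPKM.

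Germinal center B cells (GCB) of Dnmt3-deficient mice gave levels for another cell type, set beside the others with no test. These were PE-specific cells (B220+ PE+ GL7+ Fas+) sorted from lymph nodes 30 days after immunization with PE-CFA. By the study's account, mice were pooled for each GCB library. The median level of the ER translocation list on the log2(FPKM + 1) scale was 5.89 to 6.04 in nB libraries, 6.34 to 6.44 in GCB and 7.79 to 8.15 in BMPC. The cell cycle list ran at 1.71 to 2.71, 7.14 to 7.37 and 4.65 to 5.10, so BMPC lay between the other two. The homing list ran at 6.49 to 6.94, 3.06 to 3.64 and 0.33 to 2.38, and the identity list at 4.84 to 5.49, 4.73 to 5.09 and 0.96 to 2.06. Members of the identity list could differ from its median: Pax5 stood at 18.5, 18.1 and 21.6 FPKM in GCB, under every nB library.

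**Figure D3:**
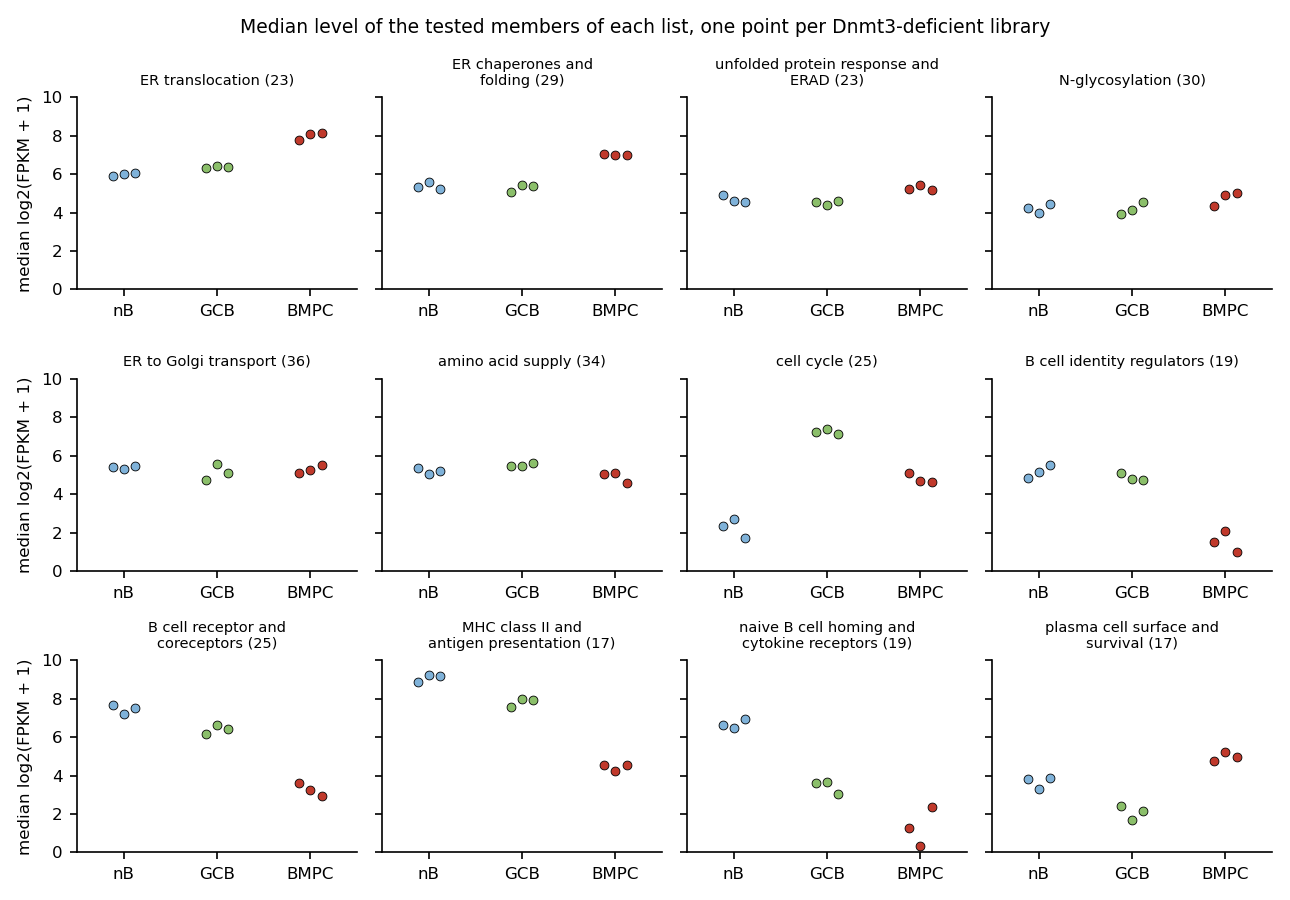
Median log2(FPKM + 1) of the tested members of each list, 1 point per Dnmt3-deficient library of nB, GCB and BMPC (3 each; the number of members is in each title). BMPC is highest for ER translocation (7.79 to 8.15) and lowest for B cell identity regulators (0.96 to 2.06), and GCB is highest for cell cycle (7.14 to 7.37).

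The same comparison in Dnmt3-sufficient mice, whose 6 libraries are not shared with the above, gave 902 of 10202 genes higher in BMPC (8.84%) and 2157 lower (21.1%). Over 9660 genes tested in both genotypes, 429 genes rose in both, which was 49.1% of the 874 that rose in Dnmt3-sufficient and 74.2% of the 578 that rose in Dnmt3-deficient cells. Of the 874, a further 387 had the same sign without passing in Dnmt3-deficient cells, 52 had the opposite sign without passing and 6 fell. Of falls, 1213 were shared, 57.6% of 2105 and 49.4% of 2454. Across those 9660 genes, which are not independent replicates, the log2 differences of the genotypes had a Pearson correlation of 0.772 and a Spearman correlation of 0.713.

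In Dnmt3-sufficient cells 15 of 23 ER translocation genes rose, all 15 also in Dnmt3-deficient cells, and 13 of 29 chaperone genes rose, also all shared. Over the 5 secretory lists 51 rose there against 54 in Dnmt3-deficient cells, 48 of them in both, and over the naive B cell lists 65 fell against 63, 59 of them in both. Prdm1 passed in Dnmt3-deficient cells alone, but the difference between the genotypes was 1.93 on the log2 scale and did not pass. Lman1 stood at 39.4, 58.8 and 47.3 FPKM in Dnmt3-deficient BMPC and at 5.52, 34.6 and 4.01 FPKM in Dnmt3-sufficient BMPC, with a difference of 2.71 between the genotypes that did not pass either. For cell cycle genes 16 of 25 rose in Dnmt3-sufficient cells against 11, with medians of 2.65 and 1.52. None of the members passed limma's test of the difference, for which 3 of 26 had an unadjusted p under 0.05, against 799 of all 11042 genes.

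**Figure D4:**
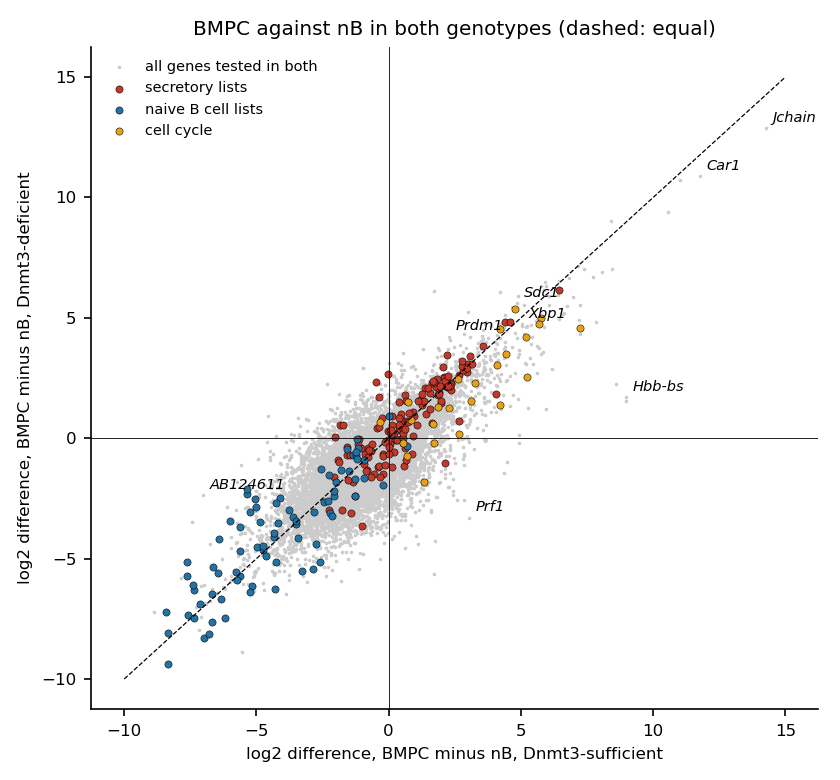
Each point is 1 of 9660 genes tested in both genotypes, placed by its log2 difference between BMPC and nB in Dnmt3-sufficient (horizontal) and Dnmt3-deficient (vertical) cells, with the secretory, naive B cell and cell cycle lists in colour and a dashed line of equality. Secretory members lie mostly along the line on the upper right and naive B cell members on the lower left, with a Pearson correlation of 0.772 over all points.

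The difference between the genotypes in the BMPC against nB change was tested in its own model over the 12 nB and BMPC libraries. It was positive for 4 of 11042 genes (0.0362%) and negative for 12 (0.109%), and no member of the program, naive B cell, cell cycle or methylation enzyme lists was among them. In limma, each of these lists had at most 3 members with an unadjusted p under 0.05 for this difference. There were 3 of 18 MHC class II, 3 of 25 B cell receptor, 3 of 26 cell cycle, 3 of 35 amino acid supply and 3 of 36 transport genes. Over all genes tested there were 799 of 11042. On the recovered reads with voom, 1 member of these lists passed, the invariant chain gene Cd74. AB124611 stood at 137, 144 and 127 FPKM in Dnmt3-deficient nB and 26.3, 28.1 and 23.5 FPKM in BMPC, whereas Dnmt3-sufficient BMPC had none (138, 133 and 112 FPKM in nB). Oosp2 stood at 52.8, 78.9 and 25.6 FPKM in Dnmt3-deficient BMPC and at 0 in BMPC of the other genotype. Prf1, the pore-forming protein of cytotoxic cells, was at 10.6, 8.10 and 7.98 FPKM in Dnmt3-deficient nB and 0 in its BMPC, but rose from 0, 3.14 and 2.98 FPKM to 14.7, 25.8 and 20.8 FPKM in Dnmt3-sufficient cells. The groups did not overlap within either genotype for these 3 genes, except Oosp2 in Dnmt3-sufficient mice, where 1 nB library held 3.11 FPKM and the others none. In Dnmt3-deficient cells, BMPC lay wholly above nB for 10.7% of all genes tested and wholly below for 38.9%. These held every gene that rose or fell there, so the separation adds no support. The 1 gene that rose in Dnmt3-deficient and fell in Dnmt3-sufficient cells was Mex3c, an RNA-binding protein gene singled out after its values were seen, at 2.25 and -2.33. Those calls come from separate fits, and Mex3c was not among the 4 genes with a positive difference past the threshold.

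The study names 9 genes as higher and 7 genes as lower in Dnmt3-deficient BMPC. These come from its own comparison of these BMPC libraries between the genotypes, so their directions here are not independent evidence. Of the 9, 4 fell from nB to BMPC in Dnmt3-deficient cells (median -2.10) and 9 in Dnmt3-sufficient cells (median -4.25). Btla, an inhibitory receptor, stood at 173, 191 and 164 FPKM in nB and 13.6, 47.2 and 4.64 FPKM in Dnmt3-deficient BMPC, and at 0.704, 0 and 0.256 FPKM in Dnmt3-sufficient BMPC. Of the 7, all 7 fell in Dnmt3-deficient cells (median -2.84) and 1 in Dnmt3-sufficient cells. Chek2, a checkpoint kinase, stood at 7.18, 2.92 and 13.8 FPKM in nB and had no read in Dnmt3-deficient BMPC, which held 16.6, 30.4 and 10.9 FPKM in the other genotype. None of these 16 passed the test of the difference in limma or on the recovered reads with voom, while 5 of the 9 and 6 of the 7 had an unadjusted p under 0.05. That test is of the BMPC against nB change and also carries the spread of the nB libraries. It does not repeat the study's direct comparison of BMPC and cannot decide on it.

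Markers of other marrow cells moved with the comparison. The summed level of 10 erythroid genes in the table was 88.4 to 329 FPKM in nB libraries and 2662 to 6897 FPKM in BMPC libraries, and 4 of 8 tested rose. In BMPC of Dnmt3-sufficient mice it was 6992 to 10529 FPKM. Car1, a carbonic anhydrase of red cell precursors with the largest rise after Jchain, had no read in nB and 3185, 1564 and 1342 FPKM in BMPC, Car2 rose from 61.9, 60.0 and 39.2 FPKM to 2524, 1423 and 1128 FPKM, and Klf1 rose from no read. The globin genes did not pass, with Hbb-bs at 10.8, 50 and 86.6 FPKM in nB and 342, 111 and 47.7 FPKM in BMPC. Early B cell markers summed to 197 to 287 FPKM in nB and 532 to 1002 FPKM in BMPC. Most of the nB sum was Vpreb3, at 270, 172 and 195 FPKM in nB and 110, 227 and 71.1 FPKM in BMPC, which did not pass. Dntt, the enzyme that adds bases at antigen receptor joints, rose from 1.41, 9.70 and 6.51 FPKM to 315, 450.4 and 305 FPKM. Rag2, Vpreb1 and Vpreb2 had reads in BMPC replicate 2 only, at 34.8, 55.7 and 51.6 FPKM, and Bok and Erg had none in any of the 6 libraries. Of 6 early B cell markers tested 4 rose, and 2 without any 1 of the nB libraries. The 4 included Cd93, counted above as a surface gene, and Myl4, which stood at 83.2, 56.9 and 73.3 FPKM in Dnmt3-deficient GCB. Neutrophil markers summed to 0 in all nB libraries and to 21.3 to 608 FPKM in BMPC, where S100a8 and Prtn3 rose and 6 of 12 genes were too low to be tested. All 6 tested had an unadjusted p under 0.05, and without BMPC replicate 1 all 6 rose. Because all 12 stood at 0 in every nB library, those tested entered through BMPC alone and could only come out higher. Their shared direction therefore adds no support. T and NK cell markers summed to 104 to 198 FPKM and to 162 to 295 FPKM, with 2 of 12 higher and 5 lower. All 14 in the list exceeded 1 FPKM in at least 1 nB library, so nB also held transcripts of these markers. In BMPC 6 did so and 7 stood at 0 in every library. In Dnmt3-deficient nB and BMPC, macrophage markers summed to at most 13.2 FPKM and those of basophils and megakaryocytes to under 1 FPKM, while in Dnmt3-sufficient BMPC they reached 14.9 and 54.4 FPKM. By the study's methods, the staining panels also held antibodies to CD11b, CD11c, CD90.2 and Ly6-G to gate out other cells. These proteins are known markers of myeloid cells and T cells, not of red cell precursors or early B cells. The part of these cells in the rises above was not tested.

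**Figure D5:**
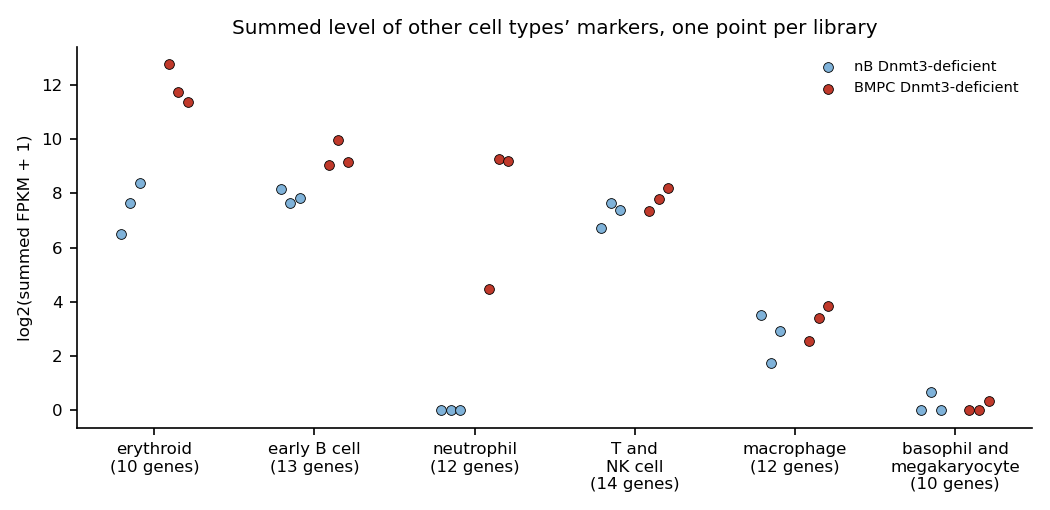
Summed FPKM of marker genes of other cell types, as log2(sum + 1), 1 point per Dnmt3-deficient nB (blue) or BMPC (red) library. Erythroid markers sum to 2662 to 6897 FPKM in BMPC against 88.4 to 329 in nB, and neutrophil markers differ among the BMPC libraries from 21.3 to 608 FPKM.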

How the data were processed

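RNA was measured by RNA-seq in nB, GCB and BMPC of 2 genotypes, 18 libraries with 3 per group, and 6 nB and BMPC libraries of Dnmt3-deficient mice carry the main comparison. FPKM values per gene were deposited by the authors, who aligned reads to mm9 with TopHat, kept 1 hit per read and counted reads over exons with summarizeOverlaps, so that near-identical copies such as globin genes may share reads unevenly. The submitters' processing notes name Picard, R 3.2.2 and edgeR 3.12.1. The table also holds columns of the authors' own comparisons, which were not used. FPKM values times exon length gave whole reads for every value within 0.01, and these recovered reads served for depth and for 2 alternatives. Of 21761 genes listed, 92 have no symbol. Apart from Jchain and Igll1, no immunoglobulin gene was analysed here, and some list members are not reported here.

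Genes above 1 FPKM in at least 2 of the libraries compared were tested with limma 3.58.1 (R 4.3.3) on log2(FPKM + 1) with an intensity trend, two-sided, with Benjamini-Hochberg adjustment over all genes tested. The threshold was an adjusted p of at most 0.05 with a log2 difference of at least 1, which is on the log2(FPKM + 1) scale and understates the change of low genes. Samples of a group are separate mice, or separate pools of mice for GCB. Where a whole group had no read, folds were computed against 3 reads per library, which covers counting error only. The methods were tested on simulated data, in which false calls ran above the nominal rate when BMPC varied more than nB. In these data, the median SD of a gene on the log2(FPKM + 1) scale was 0.91 in BMPC and 0.36 in nB of Dnmt3-deficient mice, so adjusted p-values may be too small. The library kit does not mark strand, so overlapping and antisense genes cannot be told apart.

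Members and lists (418 genes in 24 lists, 413 in the table) were chosen with earlier results of these data known. Named genes were the 4 markers, the 10 largest rises and 10 largest falls among non-overlapping genes that passed, up to 4 passing and 2 abundant non-passing members of each list, up to 5 genes each way that passed the test between genotypes, and the methyltransferases. Further members are named beside their list counts and were chosen after their values were seen. Coordinates of genes are from GENCODE on mm9. Promoters are RefSeq windows of GRCm38.p6, matched by gene ID for 8154 of 10176 genes tested. Alternatives changed the pseudocount, filter, scaling, depth, model, threshold and libraries.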

Additional observations from a re-analysis of the deposited data

Results flagged for a closer look

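The difference between genotypes in the BMPC against nB change was tested directly, and 9 of the genes past its threshold are given here as log2 values (Dnmt3-deficient minus Dnmt3-sufficient). Larger in Dnmt3-deficient cells were Oosp2 (6.28), AB124611 (4.65), Rnase2a (4.54) and Rab3b (4.10), and each had no read in the 3 Dnmt3-sufficient BMPC libraries. Rnase2a stood at 17.8, 26.7 and 23.0 FPKM in Dnmt3-deficient BMPC and Rab3b at 14.9, 12.6 and 9.25 FPKM. Smaller in Dnmt3-deficient cells were Hba-a2 (-7.43), Snord49a (-7.36), Hbb-bs (-7.26), Prf1 (-6.33) and Tcn2 (-6.00). The 2 globin genes were higher in Dnmt3-deficient nB, where Hbb-bs stood at 10.8, 50 and 86.6 FPKM, than in Dnmt3-sufficient nB (0.468, 0.614 and 0.348 FPKM). Tcn2, a cobalamin carrier gene, had no read in Dnmt3-deficient BMPC and stood at 29.7, 56.7 and 21.6 FPKM in Dnmt3-sufficient BMPC. Snord49a rests on 27, 23 and 19 reads in Dnmt3-deficient nB and none in its BMPC. Prf1 is described with the comparison itself.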

How the results depend on the processing

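No paired analysis was possible because nB and BMPC came from different mice that share no number marking a common animal, litter or day. Of 2908 values of named genes over the settings, 2750 stayed on the same side of the threshold, 111 lost their call, 47 gained one and 0 reversed. Centring on the median gene, and a minimum of 50 reads on average, were chosen after seeing the data. In Dnmt3-deficient cells, the genes higher in BMPC numbered 303 and those lower 1078 at an adjusted p of 0.01, and 1544 and 867 with centring. The 1544 held all 593 rises given above, and the 867 were all among the 2533. With sex as a covariate, 498 were higher and 1921 lower, and Cd38, Copg2 and Qars were among the named genes that lost their calls. Leaving out 1 library gave 370 to 767 higher (370 without nB replicate 3, 375 without nB replicate 1) and 1586 to 2977 lower (1586 and 1637 without the same libraries). In Dnmt3-sufficient cells, 534 and 851 passed at an adjusted p of 0.01, 1679 and 883 with centring, 3259 were lower in a fit to all 18 libraries, and leaving out 1 library gave 687 to 1024 and 1488 to 2344. For the difference between the genotypes, the 4 genes higher became 9 with a pseudocount of 0.1, 9 without a filter, 11 with median of ratios scaling, 19 in the fit to 18 libraries and 2 at an adjusted p of 0.01. The 12 lower became 19 with a pseudocount of 0.1, 44 in the fit to 18 libraries, 5 with library weights and 4 at an adjusted p of 0.01. Leaving out 1 library gave 2 to 22 and 4 to 75, the highest without Dnmt3-deficient BMPC replicate 1. Median of ratios scaling moved the median of all genes from -1.05 to -0.85 in Dnmt3-deficient and from -0.89 to -0.71 in Dnmt3-sufficient cells. The shallow BMPC libraries limit what can be said of low genes, and the cause of these moves was not tested.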
